A study of Mus musculus with 8 samples.

Results

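Fgf16 and 8 further genes of the fibroblast growth factor (FGF) family were followed in the left ventricle of mice whose heart muscle cells were made to express placental growth factor (PlGF). The 9 genes are the secreted ligands Fgf1, Fgf2, Fgf9 and Fgf16, the intracellular FGF homologous factors Fgf12 and Fgf13, and the receptors Fgfr1, Fgfr2 and Fgfr3. They were taken by gene symbol from 19933 genes measured on Affymetrix mouse gene arrays, and each is read by a single probe set. Fgf16 was chosen by its measured intensity, since its low level in PlGF hearts was already known from these arrays, and its values in all comparisons are given as a description with no test.

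The study asked which transcripts accompany the hypertrophy that goes with new vessel growth in the heart, and set PlGF hearts beside PlGF/RGS4 hearts, in which RGS4 was used to block hypertrophy. Each of the 8 arrays holds the left ventricular RNA of 1 mouse of strain C57/Bl6 at 11 weeks of age, from 3 control, 2 PlGF and 3 PlGF/RGS4 labelled mice. PlGF mice carried the TRE-PlGF responder together with the αMHC-tTA driver, which is active in cardiomyocytes, and PlGF/RGS4 mice carried the driver with responders for PlGF and for RGS4, a protein that shortens G protein signalling. Doxycycline in the diet kept the transgenes silent in all mice until 5 weeks of age, and normal chow then turned them on for 6 weeks. Controls were littermates with the driver or a responder alone, so each control also carried a transgene, and the labels do not say which. The labels give no sex.

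FGFs of the secreted kind bind heparan sulfate chains and FGF receptors at the cell surface and signal through the adaptor FRS2, the MAPK cascade and phospholipase C gamma. Fgf16, Fgf9 and Fgf20 form a subfamily, and Fgf16 is known as an FGF made by cardiomyocytes of the postnatal heart. In mice its loss is known to aggravate hypertrophy and fibrosis under angiotensin II, whereas Fgf2 is known as a factor that promotes hypertrophy. The homologous factors are not secreted. They bind the tails of voltage-gated sodium channels and shape their gating, and Fgf13 is known as the main member in mouse ventricular myocytes.

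Some properties of the hearts touch every comparison. Pgf, the gene of PlGF, had an intensity of 4136 and 917 units in PlGF, of 211 to 387 in control and of 211 to 300.0 in the hearts labelled PlGF/RGS4, so that it goes against the last label. Rgs4 read 187 to 234 in that group and 209.5 to 281.5 in control, so it was not higher either. No array showed a raised Rgs4, so whether its probe set reads the transgene is not known. Directions for this group below are therefore those of the labelled arrays. PlGF replicate 1 stood apart, with a mean correlation of 0.974 with arrays of the other groups while the remaining 7 had 0.991 to 0.993. Xist, an RNA that coats the silenced X, was low in 1 heart of each group (26.9 to 50.8, in PlGF replicate 1 and the second replicates of control and PlGF/RGS4) and 2581 to 2959 elsewhere.

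The 10 markers of ventricular cardiomyocytes summed to 133723 to 135464 intensity units in control, 114703 and 133226 in PlGF, and 132763 to 133514 in the PlGF/RGS4 labelled arrays. The 6 atrial markers summed to 4547 to 5375 in control, 5701 and 2694 in PlGF, and 3134 to 3775 in the PlGF/RGS4 labelled arrays. In the same order, Nppa read 3185 to 4096, then 4682 and 1424, then 1661 to 2224. Tbx5 read 781 to 912, then 468 and 807, then 1012 to 1076. Over all 8 arrays Myl4 lay at 286 to 435, Myl7 at 55.3 to 84.4, Sln at 37.4 to 53.6 and Bmp10 at 18.8 to 22.7. The 10 leukocyte markers summed to 3447 to 3686 in control, 12079 in PlGF replicate 1, 6307 in PlGF replicate 2, and 3077 to 4090 in the PlGF/RGS4 labelled arrays. Of these markers 5 were called higher in PlGF than in control (limma), where 1.79% of all genes were. The 8 endothelial markers summed to 12706 to 13367, 15584 and 15258, and 12557 to 13218 in the same order. They did not rise as one, since 3 of the 8 were slightly below control on average in PlGF. These were Pecam1, Flt1 and Tek, at 97.4%, 99.6% and 99.7% of the control mean, whereas Kdr was at 148.1%. The part of all these markers in the results on the FGF genes was not tested. In such bulk RNA, fewer cells of a type and less RNA per cell cannot be told apart.

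Fgf16 was lowest in PlGF hearts and intermediate in the hearts labelled PlGF/RGS4. It read 999, 776 and 765 units in the 3 control hearts, 256 and 477 in PlGF replicates 1 and 2, and 547, 605 and 646 in the PlGF/RGS4 labelled hearts. No array of a group overlapped with those of another, and the highest PlGF heart lay below the lowest PlGF/RGS4 labelled heart. Such an order, PlGF below PlGF/RGS4 below control in every array, was found for 336 genes (1.69%) and for 2 of the 9 FGF genes, Fgf16 and Fgfr3. It includes the contrast that chose Fgf16, so nothing is read from its own place among them.

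The PlGF hearts held 30.2% and 56.4% of the mean control level of Fgf16, and the PlGF/RGS4 labelled hearts 64.6%, 71.5% and 76.3%. On the scale of log2(intensity + 1), which is used for all differences below, PlGF was lower than control by a difference of −1.26 ± 0.25 (SE, limma), a 2.40-fold lower level. Taken alone, PlGF replicate 2 lay at −0.81 from the control mean and PlGF replicate 1 at −1.71. Of the 10 cardiomyocyte markers 0 passed in PlGF versus control (limma), where 0.748% of all genes were called lower and 1.79% higher. Against 19.5% of all genes, 3 of the markers lay wholly below control. These were the calcium handling genes Ryr2, at 44.7% and 81.0% of the control mean in PlGF replicates 1 and 2, Atp2a2, at 73.7% and 96.2%, and Pln, at 72.0% and 95.1%. Their part in the level of Fgf16 was not tested.

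The PlGF/RGS4 labelled hearts differed from control in Fgf16 by −0.49 ± 0.22 (SE), a comparison that shares the 3 control arrays with the former. All PlGF/RGS4 labelled arrays lay below all controls, as they did for 5.85% of genes. Between PlGF and the PlGF/RGS4 labelled hearts the difference was −0.77 ± 0.25 (SE). It was −0.33 with PlGF replicate 2 alone and −1.22 with PlGF replicate 1 alone.

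Fgf16 lies on the X chromosome, and its values were therefore also read among hearts of like Xist level. Among hearts with high Xist, it read 882 as the mean of 2 controls, 477 in 1 PlGF heart and 597 as the mean of 2 PlGF/RGS4 labelled hearts. Among hearts with low Xist, with 1 heart in each group, it read 776, 256 and 605. PlGF differed from control by −0.87 in the first and −1.60 in the second.

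**Figure D1:**
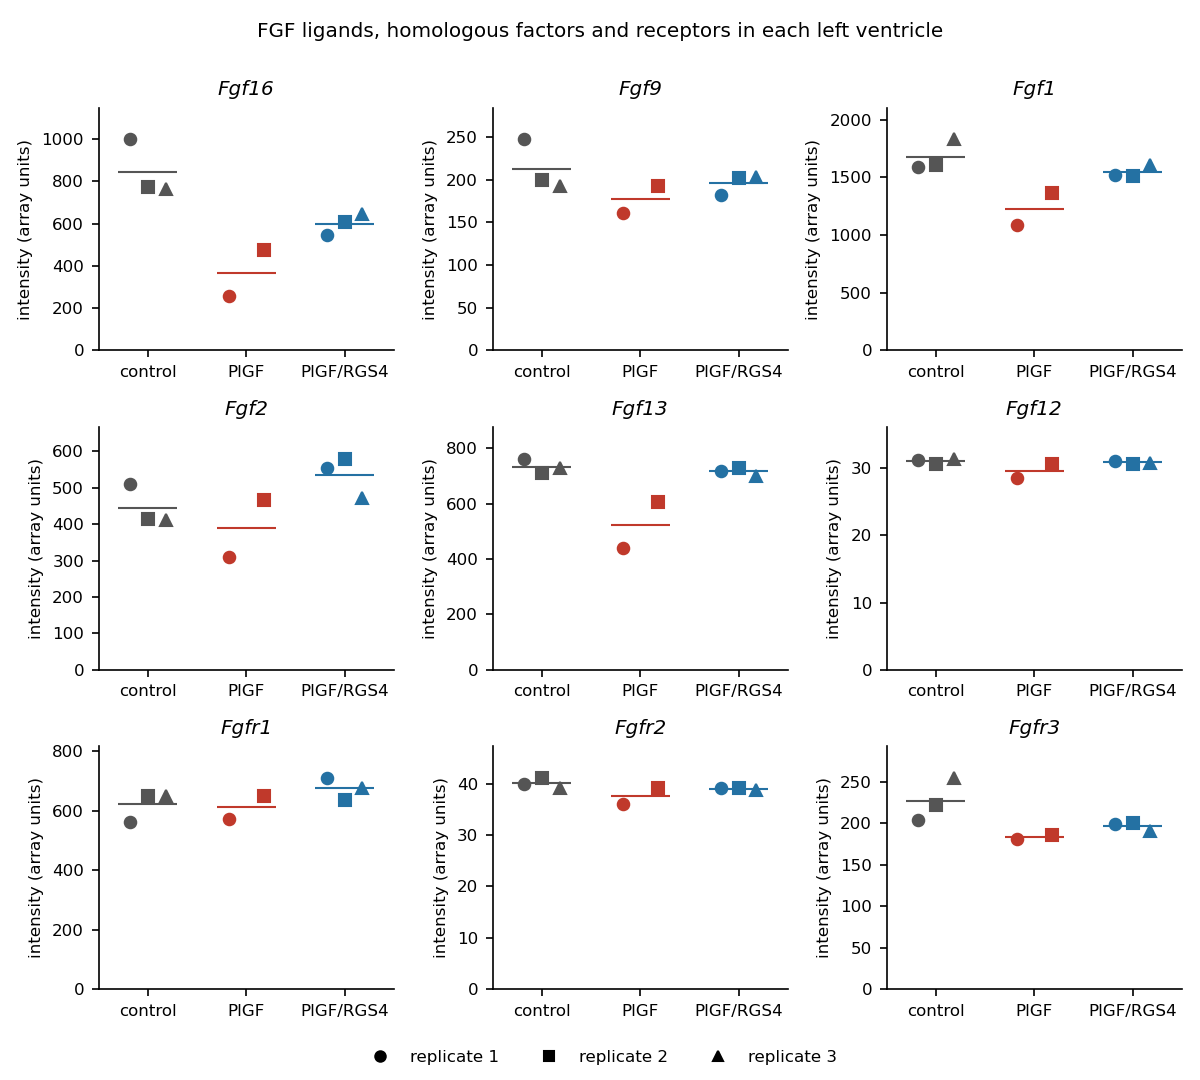
Intensity of the 9 FGF genes (y axes, linear, from 0) in each left ventricle of the 3 groups (x axes). Points are single arrays, symbols give the replicate number and lines the group mean. Fgf16 reads 765 to 999 in control, 256 and 477 in PlGF, and 547 to 646 in PlGF/RGS4 labelled hearts.

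Fgf9, the relative of Fgf16 that drives cardiomyocyte growth in the embryonic heart, read 247, 199.5 and 192 in control hearts, 161 and 193 in PlGF hearts, and 182, 202 and 203 in the PlGF/RGS4 labelled hearts. The PlGF range overlapped with control, since PlGF replicate 2 lay just above the lowest control. The difference from control was −0.26 ± 0.13 (SE) in PlGF and −0.11 ± 0.11 in the PlGF/RGS4 labelled hearts, and neither passed (limma adjusted p = 0.267 and 0.998). Fgf20, the last of the subfamily, belongs to the other paracrine ligands described below.

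Fgf1, a ligand that activates all FGF receptors, was 1.37-fold lower in PlGF than in control. Control hearts had 1588, 1606 and 1830 units, PlGF hearts 1083 and 1365, and PlGF/RGS4 labelled hearts 1522.5, 1514 and 1611. Both PlGF hearts were below every other heart, whereas the PlGF/RGS4 labelled hearts overlapped with control. The difference of −0.46 ± 0.11 (SE; 95% interval −0.71 to −0.21) did not pass over all genes (limma adjusted p = 0.0705). Against the PlGF/RGS4 labelled hearts it was −0.35 ± 0.11 (limma adjusted p = 0.161), and those hearts differed from control by −0.11 ± 0.10 (limma adjusted p = 0.998).

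Fgf2 took a course of its own among the ligands. It read 511, 413 and 410.0 in control hearts, 311 and 466 in PlGF hearts, and 554, 580 and 473 in the PlGF/RGS4 labelled hearts. The PlGF hearts lay on both sides of the lower controls, and the highest levels were in the PlGF/RGS4 labelled group. PlGF differed from control by −0.22 ± 0.18 (SE; limma adjusted p = 0.511), and by 0.075 when PlGF replicate 2 stood alone. PlGF/RGS4 labelled hearts differed from control by 0.27 ± 0.16 (limma adjusted p = 0.995).

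Between PlGF and the PlGF/RGS4 labelled hearts Fgf2 differed by −0.49 ± 0.18 (SE; 95% interval −0.91 to −0.06; limma adjusted p = 0.218). The arrays of these groups did not overlap, with 466 as the highest PlGF heart and 473 as the lowest PlGF/RGS4 labelled heart. The difference was −0.20 with PlGF replicate 2 alone and −0.78 with PlGF replicate 1 alone.

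Fgf13 was 1.42-fold lower in PlGF than in control. It read 762, 708.5 and 730 in control hearts, 440 and 607 in PlGF hearts, and 719, 729 and 699 in the PlGF/RGS4 labelled hearts. Both PlGF hearts lay below all other hearts, and the PlGF/RGS4 labelled hearts spread over the control range. The difference from control was −0.50 ± 0.12 (SE; 95% interval −0.79 to −0.22) and did not pass (limma adjusted p = 0.0728). For PlGF/RGS4 labelled hearts it was −0.04 ± 0.11 (95% interval −0.29 to 0.22; limma adjusted p = 0.998).

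PlGF and PlGF/RGS4 labelled hearts differed in Fgf13 by −0.47 ± 0.12 (SE; limma adjusted p = 0.122). PlGF replicate 1 was at −0.74 and PlGF replicate 2 at −0.27 from the control mean. Fgf13 is X-linked like Fgf16, and PlGF lay below control by −0.30 among hearts with high Xist and by −0.69 among those with low Xist.

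Fgf12, the other homologous factor, read 28.5 to 31.4 in all 8 hearts. Probe sets of 1015 olfactory receptor genes, which the heart is not known to use, had mean intensities with a median of 18.7 and a 90th percentile of 42.7, and the mean of Fgf12 over the arrays was 30.6. Its values thus lay among those of genes taken as unexpressed, and its differences, −0.07 ± 0.05 (SE) in PlGF and −0.01 ± 0.04 in PlGF/RGS4 labelled hearts (limma adjusted p = 0.426 and 0.998), say little about the transcript.

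Of the receptors, Fgfr1 is known as the main FGF receptor of cardiomyocytes. It read 563, 649 and 650 in control hearts, 573 and 649 in PlGF hearts, and 709, 637 and 677 in the PlGF/RGS4 labelled hearts. The groups overlapped in all 3 comparisons. PlGF differed from control by −0.02 ± 0.09 (SE; 95% interval −0.23 to 0.19; limma adjusted p = 0.906), a direction that turned when PlGF replicate 1, control replicate 2 or control replicate 3 was left out (0.07, 0.01 and 0.01). PlGF/RGS4 labelled hearts differed from control by 0.12 ± 0.08 (limma adjusted p = 0.995).

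Fgfr3 read 204, 222 and 254 in control hearts, 181.5 and 185 in PlGF hearts, and 198.5, 200.3 and 191 in the PlGF/RGS4 labelled hearts. Both transgenic groups lay wholly below control, and the PlGF hearts below the PlGF/RGS4 labelled ones by a small step. Differences from control were −0.30 ± 0.09 (SE) in PlGF and −0.20 ± 0.08 in PlGF/RGS4 labelled hearts, and neither passed (limma adjusted p = 0.112 and 0.963). Unlike the other lower genes, Fgfr3 was alike in the PlGF replicates, at −0.31 and −0.28 from the control mean.

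Fgfr2 read 36.0 to 41.1 over the 8 hearts, with a mean of 39.1 that again fell under the 90th percentile of the olfactory receptor genes. It differed from control by −0.09 ± 0.05 (SE) in PlGF and −0.04 ± 0.05 in PlGF/RGS4 labelled hearts (limma adjusted p = 0.346 and 0.998). The other 7 members had means above that percentile.

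**Figure D2:**
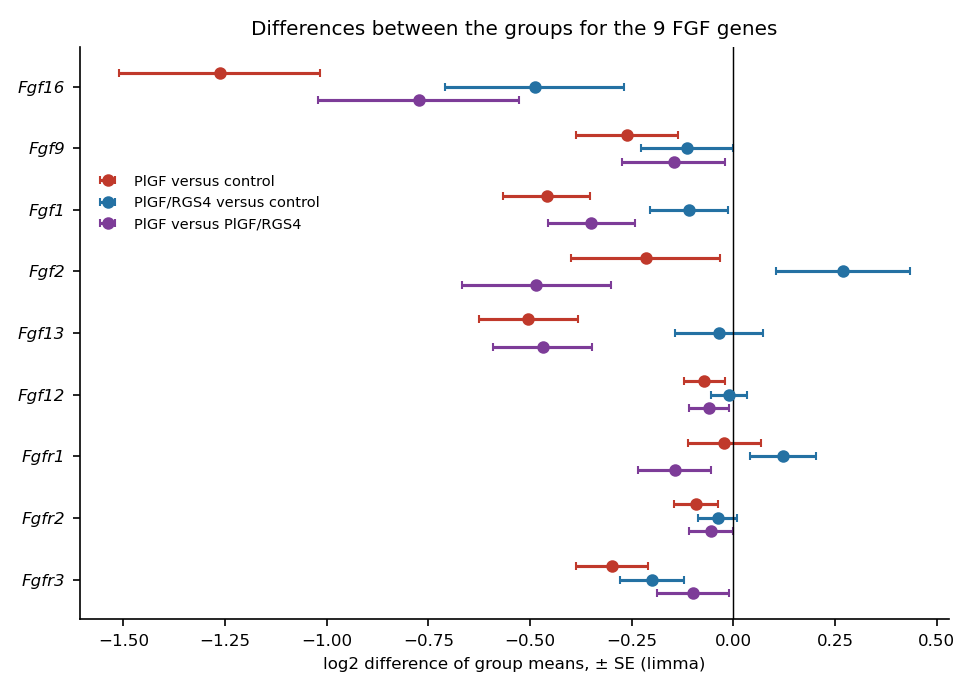
Log2 difference of the group means (x axis, ± SE of limma) for the 9 FGF genes (y axis) in 3 comparisons. Fgf16 lies farthest from 0 in PlGF versus control at −1.26, and Fgf13 differs by −0.50 in PlGF and by −0.04 in PlGF/RGS4 labelled hearts.

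Counted over the family, all 9 members lay below control in PlGF on average, where 58.7% of all genes did, and their median difference was −0.26 against −0.03 over all genes. Of the 8 members other than Fgf16, limma called 0 in PlGF versus control, where 0.748% of all genes were called lower and 1.79% higher. At an unadjusted p under 0.05, Fgf1, Fgf13 and Fgfr3 were lower, where 11.7% of all genes were. The arrays of PlGF lay wholly below control for 4 members (Fgf1, Fgf13, Fgf16 and Fgfr3), against 19.5% of all genes. Since Fgf16 was chosen in this contrast, the counts that hold it are a description.

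In the PlGF/RGS4 labelled hearts 0 of the 8 members other than Fgf16 were called in either direction, where limma called 0% of all genes lower and 0.0151% higher than control. At an unadjusted p under 0.05 there was 1, Fgfr3, which was lower, as were 2.28% of all genes. The arrays lay wholly below control for Fgf16 and Fgfr3, against 5.85% of all genes, and the median difference of the 9 was −0.04, against 0.00 over all genes. This comparison and the former share their control arrays, so the count and the median that hold Fgf16 are a description.

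Between PlGF and the PlGF/RGS4 labelled hearts 0 of the 8 members other than Fgf16 passed in limma, where 0.0853% of all genes were called lower in PlGF and 1.10% higher. At an unadjusted p under 0.05, Fgf1, Fgf2 and Fgf13 were lower in PlGF, where 10.6% of all genes were. The arrays of PlGF lay wholly below for 5 members (Fgf1, Fgf2, Fgf13, Fgf16 and Fgfr3), against 19.9% of all genes. Fgf16 was chosen for its low level in these PlGF arrays, so the count that holds it is a description.

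The wider FGF system was read through 88 genes in 9 lists by role, of which 79 were measured. In PlGF versus control 1 was higher, 0 lower and 78 did not pass in limma, against the 1.79% and 0.748% of all genes given above. At an unadjusted p under 0.05, 10 were higher and 7 lower, where 10.9% and 11.7% of all genes were, and the arrays lay wholly above control for 9 and wholly below for 11, where 14.3% and 19.5% of all genes did so. The median difference of the 79 was −0.03, the same as over all genes. In the PlGF/RGS4 labelled hearts versus control, and in PlGF versus these hearts, 0 of the 79 passed. At an unadjusted p under 0.05 the former had 3 higher and 2 lower, where 2.74% and 2.28% of all genes were, and the latter 4 higher and 6 lower, where 8.95% and 10.6% were.

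The gene that passed was Hpse, which encodes heparanase, the enzyme that cuts heparan sulfate chains and is also made by leukocytes and platelets. It read 55.4, 58.0 and 48.8 in control hearts, 128 and 81.5 in PlGF hearts, and 53.1, 52.8 and 55.9 in the PlGF/RGS4 labelled hearts. Both PlGF hearts stood above all others. The difference from control was 0.91 ± 0.17 (SE; limma adjusted p = 0.0436), and 0.0488 without PlGF replicate 1, where the difference was 0.59. The call was lost without any single control or PlGF/RGS4 labelled array (highest adjusted p 0.151, without control replicate 3). The sum of the leukocyte markers, given above, was also higher in both PlGF hearts, and its part in this result was not tested.

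Other genes of the heparan sulfate coat differed in both directions without passing. Sdc3, a syndecan, read 639 to 685 in control, then 1207 and 845 in PlGF, then 637 to 652 in PlGF/RGS4 labelled hearts (0.61 ± 0.13, SE; limma adjusted p = 0.0601). Sdc1 was at −0.34 ± 0.10 and the glypican Gpc1 at −0.48 ± 0.17 from control in PlGF (limma adjusted p = 0.0994 and 0.162). Of 13 proteoglycan and carrier genes 0 passed, and of 9 heparan sulfate enzymes 1, with Sulf2 at 0.18 ± 0.07 and Hs6st1 at 0.28 ± 0.11 (limma adjusted p = 0.170 and 0.204).

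Among the 11 measured adaptors and relay kinases 0 passed. Sos1, which loads RAS with GTP, and Grb2, the adaptor that brings it to the receptor, were at 0.34 ± 0.08 and 0.27 ± 0.07 from control in PlGF, and Map2k1, the kinase MEK1, at 0.30 ± 0.15 (limma adjusted p = 0.0687, 0.0980 and 0.271). Of the 16 feedback inhibitors and target genes 0 passed. In PlGF 8 of the 16 lay below control on average, where 58.7% of all genes did, and their list had a median difference of −0.01. Flrt2, of a family of FGF receptor binding proteins, read 122 to 146 in control, 183 and 180 in PlGF, and 148.5 to 176 in PlGF/RGS4 labelled hearts (0.46 ± 0.09; limma adjusted p = 0.0553).

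Etv1, a transcription factor induced by FGF signalling, read 403 to 483 in control, 302 and 352 in PlGF, and 371 to 391 in PlGF/RGS4 labelled hearts (−0.43 ± 0.09, SE; limma adjusted p = 0.0604). Il17rd, an inhibitor of FGF signalling known as Sef, was at −0.19 ± 0.07 (limma adjusted p = 0.186). Other genes of this list went both ways in PlGF. Spred1 was at 0.46 ± 0.18, Etv5 at 0.31 ± 0.18 and Dusp6 at 0.24 ± 0.19 from control. Spry4 was at 0.12 ± 0.16 and Spry1 at −0.20 ± 0.11, and 8 of the 16 lay below control. For Flrt2 and Etv1 both transgenic groups lay on the same side of every control, at 0.28 ± 0.08 and −0.22 ± 0.08 in the PlGF/RGS4 labelled hearts (limma adjusted p = 0.917 and 0.945). The same held for Sos1 and Grb2, at 0.21 ± 0.07 and 0.18 ± 0.07 in those hearts (limma adjusted p = 0.945 for each). Of the 79 pathway genes, 4 lay wholly above and 5 wholly below control in those hearts. Over all genes 6.96% and 5.85% did so, and nothing is read from these 4 genes.

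Of the remaining homologous factors, Fgf11 read 115 to 134 in control, 81.3 and 109 in PlGF, and 112 to 118 in PlGF/RGS4 labelled hearts (−0.38 ± 0.12, SE; limma adjusted p = 0.131). Fgf14 was at −0.57 ± 0.33, with 148, 93.2 and 155 in control and 63.3 and 119 in PlGF (limma adjusted p = 0.347). Of the 11 other paracrine ligands, Fgf20 included, and the 3 endocrine ligands 0 passed, and the smallest p-values were those of Fgf7 (−0.64 ± 0.32), Fgf8 (−0.15 ± 0.08) and Fgf10 (−0.10 ± 0.06), and of Fgf21 (−0.14 ± 0.10), Fgf15 (−0.09 ± 0.09) and Fgf23 (−0.00 ± 0.13).

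Of the 4 other receptors and co-receptors 0 passed. Klb, the co-receptor of Fgf21, was at −0.31 ± 0.13 (SE), Kl at −0.06 ± 0.07 and Fgfr4 at −0.08 ± 0.11 (limma adjusted p = 0.212, 0.606 and 0.701). Among 10 measured genes of sodium and calcium channels, their subunits and other partners of the homologous factors 0 passed. Cacna1c, the pore of the cardiac L-type calcium channel, read 2719 to 2912 in control, 1433 and 2340 in PlGF, and 2606 to 2766 in PlGF/RGS4 labelled hearts (−0.63 ± 0.18; limma adjusted p = 0.0992), and the sodium channel genes Scn3b and Scn7a were at 0.24 ± 0.09 and −0.23 ± 0.14 (limma adjusted p = 0.183 and 0.365). The main cardiac sodium channel gene was not analysed here.

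**Figure D3:**
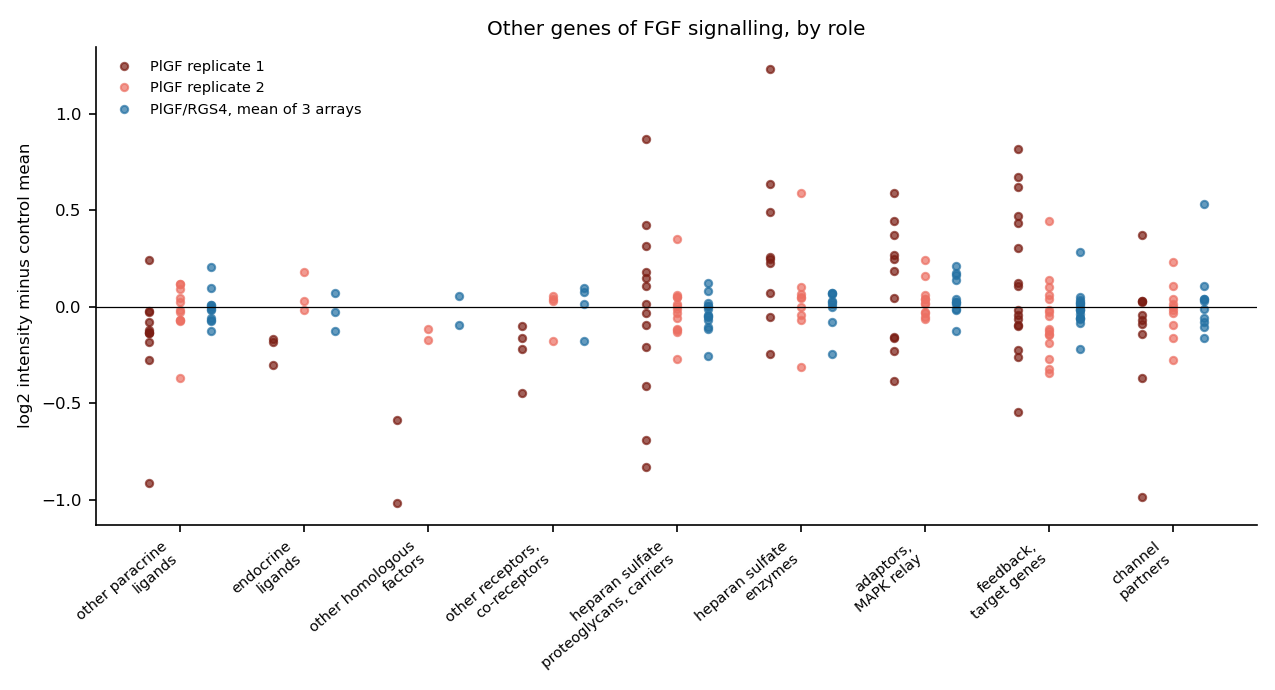
Log2 intensity minus the control mean (y axis) of 79 further FGF signalling genes in 9 role lists (x axis), for PlGF replicate 1, PlGF replicate 2 and the mean of the 3 PlGF/RGS4 labelled arrays. Points are genes. They run from −1.02 to 1.23 in PlGF replicate 1, from −0.37 to 0.59 in PlGF replicate 2 and from −0.25 to 0.53 in the PlGF/RGS4 mean.

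The spread of these 79 genes was wider in PlGF replicate 1 than in PlGF replicate 2, with a median size of the difference from control of 0.22 against 0.06, and 0.06 for the mean of the PlGF/RGS4 labelled arrays. Each of the 9 members had its lower PlGF value in replicate 1. With PlGF replicate 1 left out, Fgf16 stayed lowest at −0.81, followed by Fgf1 at −0.29, Fgfr3 at −0.28 and Fgf13 at −0.27, and of the latter 3 none passed (limma adjusted p = 0.230, 0.347 and 0.105).

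The genes whose course over the 8 arrays came nearest to that of Fgf16 were found by the root mean square of the difference between 2 profiles of log2 intensity, each taken relative to its control mean. Among 18617 named genes the nearest was Trabd2b, which encodes a membrane protease that acts on Wnt proteins, at 0.101, against a median of 0.736 over all genes. Then came Rbfox1, a splicing regulator, at 0.171, the ADP receptor gene P2ry1 at 0.175, and Corin, the protease that activates atrial natriuretic peptide, at 0.176. Syde2, Cytl1, Pygb, Lgi1, Hopx and Adh1 followed, at 0.190 to 0.219.

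Each of the 10 was wholly below control in PlGF, between −0.99 for Pygb, the brain form of glycogen phosphorylase, and −1.36 for Rbfox1. In PlGF replicate 1 they lay from −1.96 to −1.29 and in PlGF replicate 2 from −0.77 to −0.41 relative to control, and in the PlGF/RGS4 labelled hearts their means lay from −0.56 (Corin) to −0.26 (Cytl1). Of the other FGF genes the closest were Fgf13, at 0.496 and rank 455, and Fgf1, at 0.510 and rank 520, and a gene level in all 8 arrays would lie at 0.745. These are descriptions, since genes that share a contrast chosen for its size resemble each other.

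**Figure D4:**
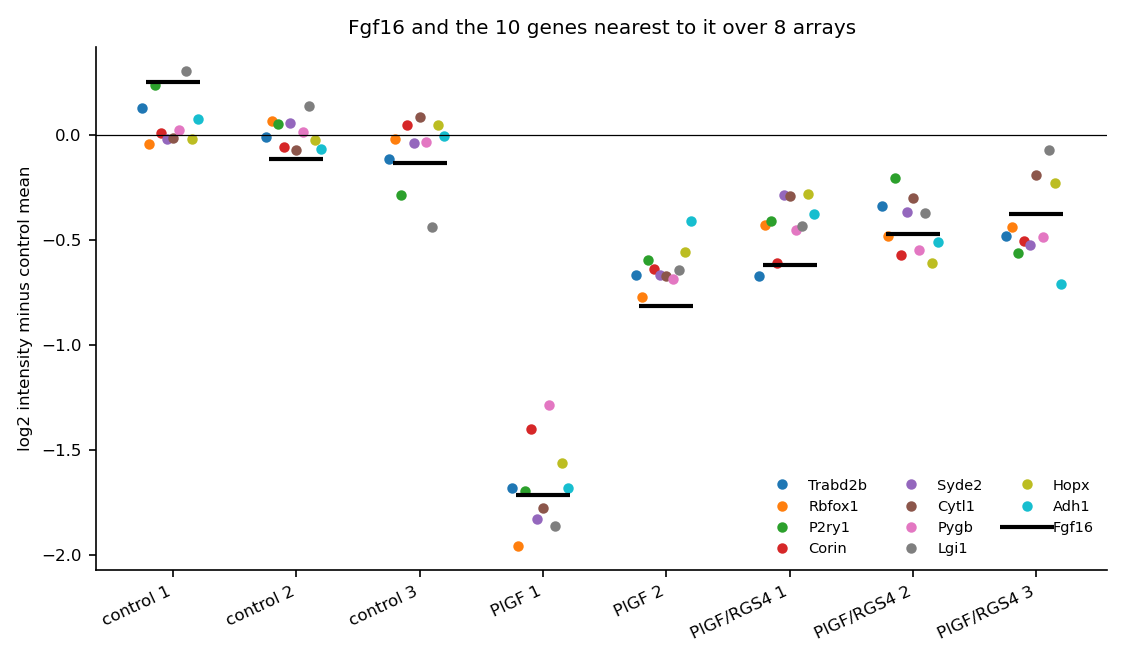
Log2 intensity minus the control mean (y axis) in the 8 arrays (x axis, group and replicate number) for Fgf16 (black bars) and the 10 genes nearest to it (points, 1 colour per gene). All lie between −1.96 and −1.29 in PlGF replicate 1 and between −0.81 and −0.41 in PlGF replicate 2.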

How the data were processed

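Total RNA from the left ventricles of 8 mice was hybridised, 1 mouse per Affymetrix array. The deposited values are intensity that the authors computed with MAS5 and global scaling, per the labels and the methods, as 1 linear value per probe set from 7.1 to 21704, with array medians of 111.1 to 115.2. All 8 columns were used. Of 28440 probe sets, 21780 with 1 gene symbol were kept, and the brightest per gene gave 19933 genes. Gene symbols are those of the platform annotation. Of the kept probe sets 21689 matched a RefSeq gene ID of GRCm38.p6, and 0 symbols changed. No coordinates are given, since no build is named for the arrays. The number of arrays limits the precision.

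Values were tested as log2(intensity + 1) by limma 3.58.1 under R 4.3.3, as 3 group means fitted to all 8 arrays with empirical Bayes moderation. Adjusted p-values (Benjamini-Hochberg, all 19933 genes) were called at 0.05. The procedure was tested on simulated data. Such differences understate the change of dim genes. P-values measure the spread between arrays labelled biological replicates. Sequences of Fgf16 were not analysed here. Members, lists, tests and the naming rule were chosen with earlier results of these data known. Named were the 9 members, Pgf, Rgs4 and Xist, pathway genes that passed or, up to 3 per list, had the smallest p in PlGF versus control, up to 2 markers per list, and the 10 nearest profiles, without predicted genes. Fgf20, Spred1, Etv5, Dusp6, Spry4, Spry1, further markers and genes used for ranges were named after their values were seen. Alternatives were other normalizations, filters, pseudocounts, priors, weights and tests, a term for Xist level, the replicate number as a block, and each array left out.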

Additional observations from a re-analysis of the deposited data

How the results depend on the processing

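The count of members called in PlGF versus control with Fgf16 included was 1, Fgf16, which was chosen in this contrast, so nothing is read from it. The count was 0 with quantile normalization, log2 of the intensity plus 16, array weights, a fit to just the compared groups, the methods' t-test and the one-way ANOVA spread. It was 0 to 3 when single arrays were omitted. The count of pathway genes, 1, was 0 in the same fits other than quantile normalization, 2 with each array centred on its median, and 0 to 30 with an array left out. In PlGF versus PlGF/RGS4, members called ran from 0 to 4 and pathway genes from 0 to 24 with an array left out, and centring gave 1 pathway gene. The high counts (3, 30, 4 and 24) came without PlGF replicate 2, where PlGF replicate 1 alone stands for PlGF and is assumed to vary like the other groups. Apart from the replicate block, the other alternatives, and all 20 for PlGF/RGS4 versus control, gave counts within 1.5 times those reported.

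Fgf16 kept its direction in PlGF in all 20 alternatives, from −1.71 without PlGF replicate 2 to −0.81 without PlGF replicate 1. With single arrays omitted, directions turned for Fgf2 in PlGF versus control (−0.507 to 0.075, the latter without PlGF replicate 1), Fgfr1 there (−0.112 to 0.067; above 0 without PlGF replicate 1, control replicate 2 or control replicate 3) and Fgfr2 in PlGF versus PlGF/RGS4 (−0.114 to 0.006, the latter without PlGF replicate 1). The cause was not tested. Over all genes 505 were called in PlGF versus control, with 0 (fit to just the compared groups) to 5921 (without PlGF replicate 2) in the alternatives, against 237 with 1 to 5591 for PlGF versus PlGF/RGS4 and 3 with 0 to 4 for PlGF/RGS4 versus control.

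With the replicate number as a block, 0 members and 0 pathway genes were called in PlGF versus control, and 27 of all genes. The numbers were not taken to pair the hearts, since the deviations of same-numbered control and PlGF/RGS4 arrays correlated at 0.076, 0.296 and 0.101, and those of control and PlGF at −0.15 and −0.14. Not every array correlated best with its own number.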
